A study of Homo sapiens with 3 samples.

Results

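The replication-dependent histone genes were examined in accessible chromatin of human neurons. They were taken as the protein-coding genes whose RefSeq symbol is H1-1 to H1-6 or begins with H2AC, H2BC, H3C or H4C and a digit. This gave 70 of the 20037 protein-coding genes on the main chromosomes, with 6 H1, 17 H2A, 19 H2B, 13 H3 and 15 H4 genes. Of these, 62 were at most 1 kb long and 8 were longer, up to 29682 bp. The cells were neurons made from KOLF2.1J-hNGN2, a single established line of induced pluripotent stem cells named for the human neurogenic factor NGN2, on day 14 of differentiation. Accessibility was measured by ATAC-seq, in which the Tn5 transposase inserts adapters into open DNA. All 3 biological replicates form 1 group and were combined by the authors into 1 list of peaks, so no spread between replicates can be given and every value below is 1 value for the pooled samples. The list holds 145092 summits in 65234 distinct intervals, and each summit carries the authors' fold enrichment, a ratio of its tag count to a local background. A gene was called accessible when a summit lay within 1 kb of either of its outer ends. Fewer cells with an open site and a site that is less open in every cell cannot be told apart in such data.

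Replication-dependent histones package newly made DNA. Their genes are typically short and without introns, are transcribed mainly in S phase, and yield mRNAs that end in a conserved stem-loop instead of a poly(A) tail. The core histones H2A, H2B, H3 and H4 form the nucleosome, and H1 binds the linker DNA between nucleosomes. The genes lie in clusters, the largest on chromosome 6 and smaller ones on chromosome 1. Neurons have left the cell cycle. In cells that no longer divide, new histone comes mainly from the replication-independent variant genes, which lie elsewhere.

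Most histone genes were accessible in these neurons. A summit lay within 1 kb of an outer end in 60 of the 70 genes (85.7%), against 68.8% of all protein-coding genes. Its 95% interval by Wilson's method ran from 75.7 to 92.1% and treats genes as independent, although many share intervals. With only summits of a score of at least 830, 60 of 70 histone genes stood against 67.1% of all protein-coding genes. The comparison depended on the kind of gene set beside them. The median histone gene was 494 bp long, against 24115 bp for all protein-coding genes, and of the 1195 other protein-coding genes no longer than 2 kb only 25.7% had a summit. The gap was smaller beside genes that lie close together. Of the 5670 other genes with an end of another coding gene within 1 kb, 83.7% had a summit, against 37 of the 40 histone genes placed that way (92.5%). Among genes without such a neighbour the shares were 23 of 30 histone genes (76.7%) and 62.7% of 14297 others.

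The 10 genes without a summit were H1-1, H1-6, H2AC1, H2BC1, H2BC3, H2BC12L, H3C3, H4C6, H4C7 and H4C16. H1-6 encodes a testis-specific linker histone, and H2AC1 and H2BC1 are a divergent pair that encodes testis histones. The nearest summits lay 11991 bp from H2AC1 and 12705 bp from H2BC1, and 2959 bp from H1-6. H2BC3 and H3C3 are neighbours, with the nearest summits at 9244 and 9294 bp. H4C6 and H4C7 are neighbours as well, at 5370 and 2782 bp, and H4C7 encodes an H4 that differs in sequence from the protein shared by the other H4 genes. H1-1 was 2635 bp from a summit. The remaining genes are each the only member on their chromosome: H4C16 on chromosome 12, 2857 bp from a summit, and H2BC12L on chromosome 21, 44185 bp from one.

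Few genes lay near the limit of 1 kb. In every accessible gene except H4C13 the nearest summit lay at most 161 bp from an outer end, the value of H2BC5. In H4C13 it lay at 769 bp. Its nearest summit lay 1155 bp downstream of its start in the interval of its neighbour H3C11, and no interval reached its promoter. The nearest gene outside the limit was H1-1.

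**Figure D1:**
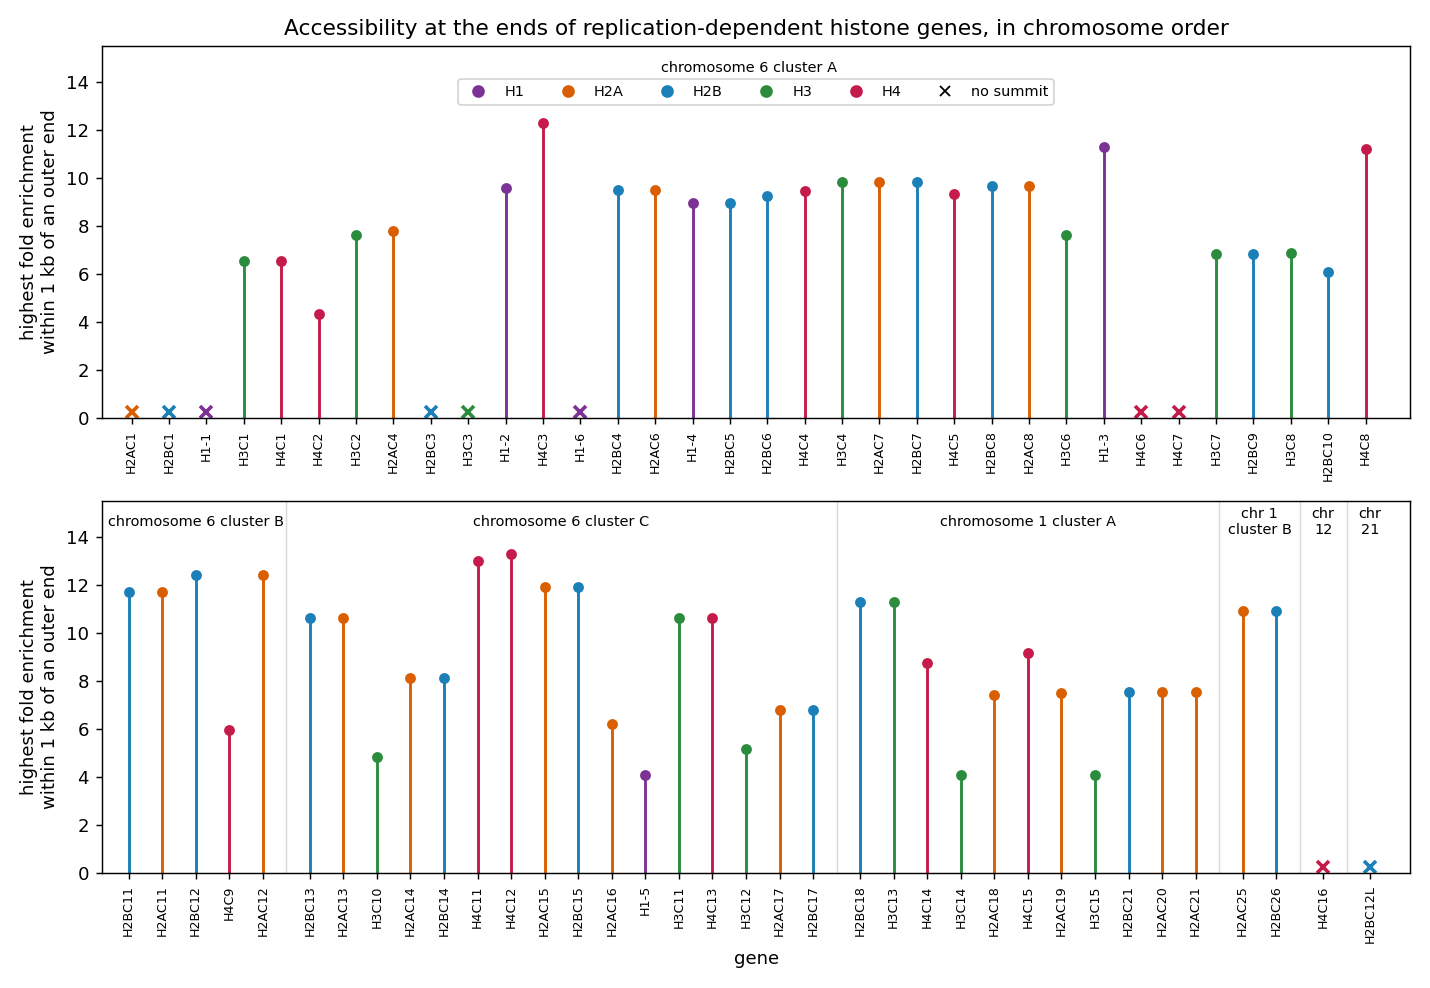
Highest fold enrichment within 1 kb of an outer end (vertical axis, no unit) for each of the 70 histone genes, in chromosome order and coloured by class; crosses are the 10 genes without a summit. Of the 8 genes without a summit on chromosome 6, all lie in cluster A, and neighbours with equal height share a summit.

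By class, a summit was found at 16 of 17 H2A genes (94.1%), 12 of 13 H3 genes (92.3%), 16 of 19 H2B genes (84.2%), 12 of 15 H4 genes (80.0%) and 4 of 6 H1 genes (66.7%). The Wilson intervals overlapped for every pair of classes, from 30.0 to 90.3% for H1 and from 66.7 to 98.6% for H3, so an order of the classes cannot be read from these counts.

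**Figure D2:**
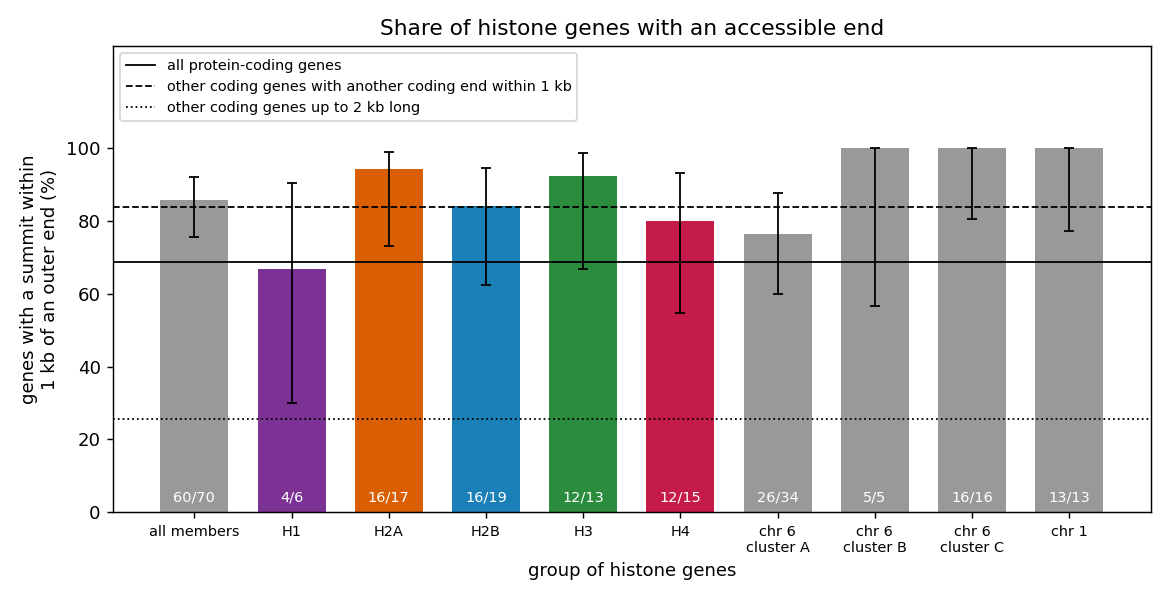
Percent of histone genes with a summit within 1 kb of an outer end, by class and by cluster, with Wilson 95% intervals as error bars and counts at the foot of each bar; horizontal lines give the share in 3 sets of coding genes. The 60 of 70 genes stand at 85.7%, between the solid line of all coding genes at 68.8% and the 100% of clusters B and C on chromosome 6 and of chromosome 1.

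Genes on chromosome 6 fell into 3 clusters when members less than 500 kb apart were joined. Cluster A, chr6:25726063-26285534, held 34 genes, of which 26 had a summit (76.5%). Cluster B, chr6:27132316-27147562, had 5 of 5, and cluster C, chr6:27807479-27893891, had 16 of 16. On chromosome 1 a summit was found at 11 of 11 genes in cluster A, chr1:149782689-149887965, and at both genes of cluster B, H2AC25 and H2BC26, chr1:228457364-228458558. Chromosome 6 as a whole had 47 of 55 genes (85.5%) and chromosome 1 had 13 of 13 (100%). The difference of -14.5 percentage points has an interval from -26.2 to 9.31 that includes 0, and it changed sign to 0.839 when only the strongest summit of each interval was counted.

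Intervals inside the clusters lay mostly at the histone genes themselves. Cluster A of chromosome 6 contained 35 intervals, or 6.26 per 100 kb against 2.11 over the genome. Of these, 25 had a summit within 1 kb of a histone gene, 2 served other coding genes and 8 lay elsewhere. In clusters B and C of chromosome 6 the histone genes accounted for 3 of 3 and 11 of 11 intervals, and in cluster A of chromosome 1 for 7 of 8. The spans held 7 other coding genes, of which 3 had a summit (42.9%), and the 4 without one included the transporter genes SLC17A2, SLC17A3 and SLC17A4 in cluster A of chromosome 6. Of 13 histone pseudogenes, 7 had a summit within 1 kb (53.8%), and for 5 of the 7 every such interval also lay at a histone gene. H2BC27P on chromosome 1, with a fold enrichment of 12.4, and H3C9P on chromosome 6, at 7.48, had an interval that lay at no coding member.

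Neighbouring histone genes often shared 1 interval. The 60 accessible genes were served by 54 intervals, of which 21 (38.9%) lay within 1 kb of more than 1 histone gene, against 15.7% of 13186 intervals at the ends of coding genes shared by coding genes. There were 18 intervals at 2 genes and 3 at 3 genes. In all, 40 genes lay at a shared interval, and 32 had no interval to themselves. Leaving out those 32 genes, 28 of 38 had a summit (73.7%). Only accessible genes can be left out in this way, so the share could only fall by construction. The width of shared intervals had a median of 1295 bp, and that was 900 bp for the 33 intervals of a single histone gene. Genes that share their highest summit have 1 measurement between them, and 42 distinct summits stood behind the highest values of the 60 genes. Other genes in a shared interval had summits of their own, as H3C14 at 4.07 and H2AC18 at 7.41.

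The divergent pairs of an H2A and an H2B gene showed where the accessible site lies. In such a pair the genes are transcribed away from each other from starts that lie close together. Of 11 pairs with starts in the RefSeq promoter table, with 194 to 248 bp between the starts, 10 had a summit and the germ-line pair H2AC1 and H2BC1 had none. In all 10 the highest summit lay between the starts, and exactly 1 summit lay there. Its distance from the middle had a median of 5.50 bp and reached 58 bp, and in 6 of the 10 pairs it was within 10 bp. At H2AC14 and H2BC14 the summit fell on the middle, with a fold enrichment of 8.10. At H2BC11 and H2AC11 it was 2 bp from the middle, with a fold enrichment of 11.7 from 1674 tags (exact Poisson 95% interval 1595 to 1756). Other summits around these pairs were lower: the second highest reached 1.84 to 6.55 in the 9 pairs that had one.

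Other coding genes arranged alike gave a comparison. Of 106 divergent pairs of other coding genes with starts 190 to 250 bp apart, 105 had a summit, and the highest lay between the starts in 95 of them (90.5%). Its median distance from the middle was 35.0 bp, and it was within 10 bp of the middle in 20 pairs (19.0%). Fold enrichment had a median of 14.0 in these pairs and 9.75 in the 10 histone pairs.

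**Figure D3:**
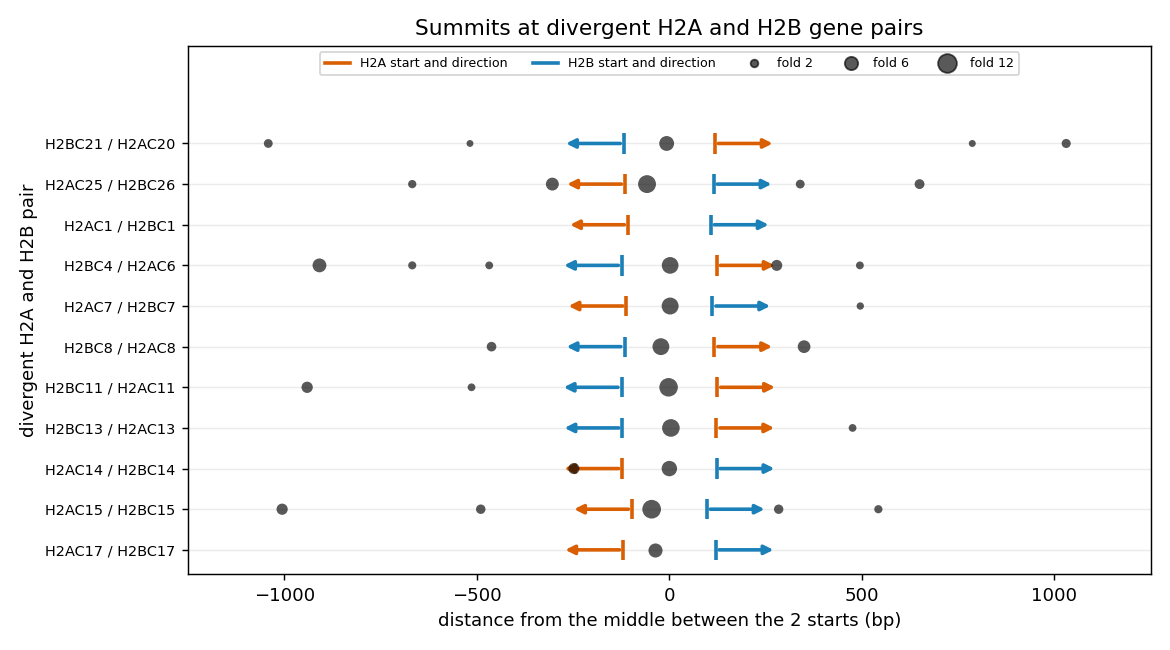
Summits (black discs, area proportional to fold enrichment) around the 11 divergent H2A and H2B pairs, in bp from the middle between the starts; bars and arrows mark each start and its direction. In the 10 pairs with a summit the largest disc lies between the starts, and H2AC1 and H2BC1 have none.

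The median position of the nearest summit differed between classes, although single genes of different classes overlapped. A start was listed for 64 members, and for 54 of them a summit lay within 1 kb of the start (84.4%, against 72.4% of coding genes with a listed start). An interval lay over the promoter in 54 of the 64 as well, against 71.1% of coding genes. All 54 had it within 200 bp, as had 94.0% of the 11463 coding genes with a summit near the start. The median position was 94.5 bp upstream in histone genes and 44.0 bp upstream in coding genes. Among the classes it was -118 bp for H2A and -116 bp for H2B, where the pairs share the site, but -59.0 bp for 10 H3 genes and -30.5 bp for 4 H1 genes. Single H3 genes ran from -7 bp at H3C7 to -105 bp at H3C14 and H3C15, within reach of H2A and H2B genes. H4 genes were divided: of 9 with a summit near the start, 5 had it upstream and 4 downstream, among them H4C9 at 83 bp and H4C4 at 53 bp into the transcribed side.

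**Figure D4:**
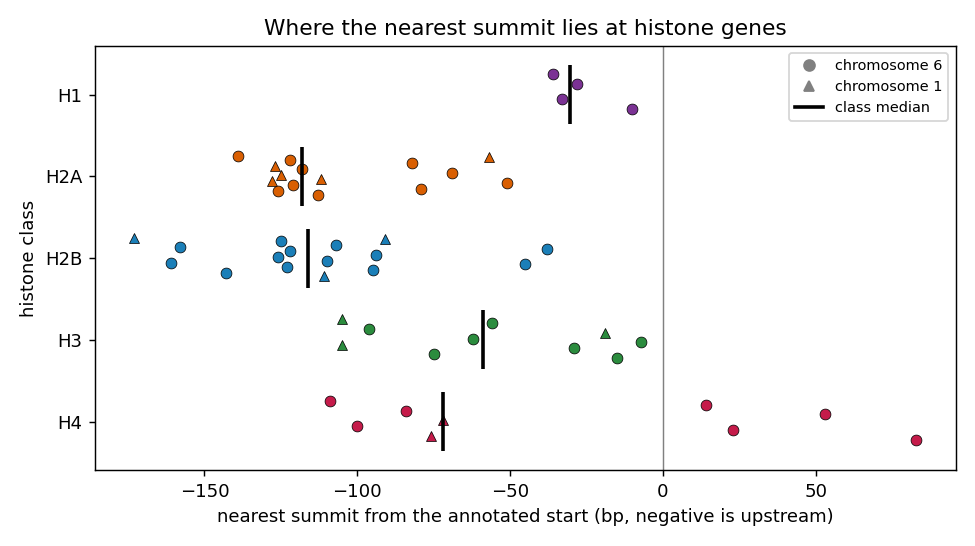
Distance of the nearest summit from the annotated start (bp, negative is upstream) for the 54 histone genes with a summit within 1 kb of a listed start, by class; circles are genes on chromosome 6, triangles genes on chromosome 1 and black bars class medians. The medians of H2A and H2B lie near -117 bp, with single genes from -38 bp at H2BC9 to -173 bp at H2BC26. The 4 points to the right of 0 are all H4 genes.

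The strength of the sites was set against all coding genes with a summit. The highest fold enrichment of the 60 accessible histone genes ranged from 4.07 to 13.3 with a median of 9.21, below the median of 10.4 for coding genes, and 19 of the 60 stood above that median. Tag counts placed them differently. The median was 1120 tags against 931, and 35 of the 60 stood above the median of coding genes. The local background under these summits, by which fold enrichment is divided, was higher: its median was 117 tags against 86.5, and 45 of 60 were above the median of coding genes. The background of a summit equals the mean level over the surrounding 10 kb, as worked out from the values, and tags at neighbouring sites count toward it. Within these 10 kb, intervals covered a median of 1996 bp at histone genes and 1419 bp at coding genes.

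Chromosomes 6 and 1 changed their order with the measure. In fold enrichment, the median was 9.45 for the 47 genes on chromosome 6 (4.08 to 13.3) and 7.52 for the 13 genes on chromosome 1 (4.07 to 11.3), a log2 ratio of 0.33. In tags, the medians were 866 (269 to 1674) and 1646 (946 to 1880), a log2 ratio of -0.91. All 13 genes on chromosome 1 had at least 946 tags, as had 21 of the 47 on chromosome 6, so the groups overlapped by either measure. With only summits within 200 bp of a listed start, the lowest count on chromosome 1 was 565 tags, at H3C13. The median background was 111 tags on chromosome 6 and 221 on chromosome 1. Counting each distinct summit once left the same order in both measures, with 9.25 and 7.52 in fold enrichment and 827 and 1377 in tags over 33 and 9 summits. Other settings left a smaller difference or none: the log2 ratio in fold enrichment was 0.11 with the strongest summit of each interval, and 0.00 without genes that share every interval. Without the 8 genes that have a near-identical promoter elsewhere, of which 6 lie on chromosome 1, the log2 ratio in fold enrichment became -0.23.

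**Figure D5:**
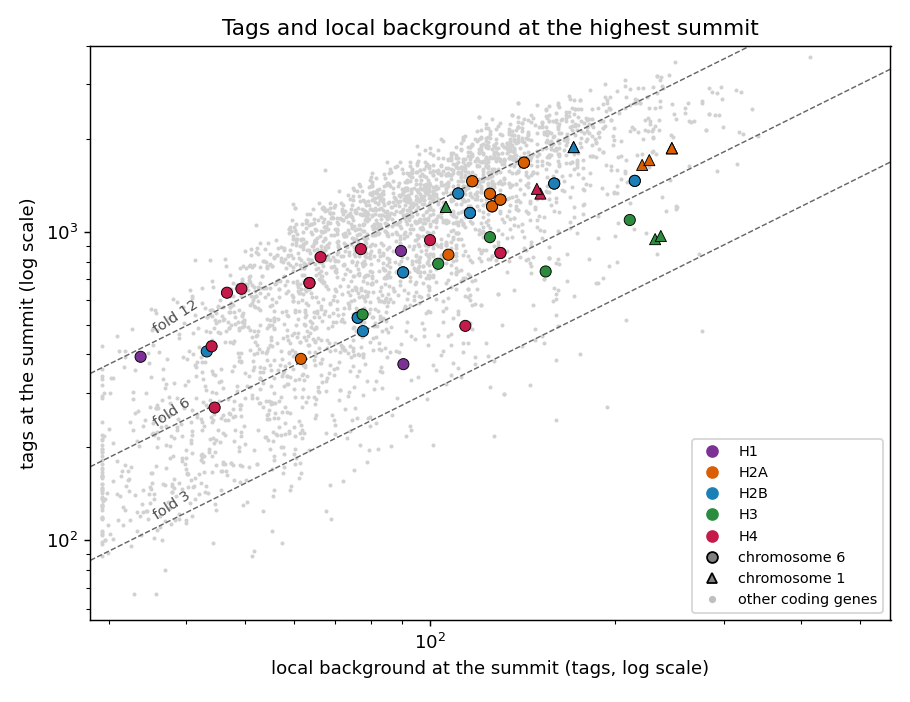
Tags at the highest summit against the local background there (both in tags, log axes) for the accessible histone genes (coloured by class; circles chromosome 6, triangles chromosome 1) and a random draw of other coding genes (grey); dashed lines mark equal fold enrichment, and genes that share a summit lie on one point. The chromosome 1 genes lie toward the right, at backgrounds of 106 to 247 tags.

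The highest summit within 1 kb of an outer end was not always at the gene's own start. Of 55 accessible genes with a listed start, 6 had it more than 200 bp away: H1-4, H2AC21, H3C1, H3C7, H3C13 and H4C13. Counting only summits within 200 bp of a listed start left 54 genes with a median fold enrichment of 8.85, and a log2 ratio of chromosome 6 over chromosome 1 of 0.31. Class medians then became 7.85 for H1, 8.10 for H2A, 9.60 for H2B, 5.45 for H3 and 9.32 for H4.

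Within the classes, the H4 genes spanned a wide range. H4C12 had the highest fold enrichment of all members, 13.3 from 634 tags (586 to 685) over a background of 46.7 tags, and H4C2 the lowest of its class, 4.32 from 495 tags (452 to 541) over 114 tags. Over the 12 accessible H4 genes the median was 9.38, with 754 tags (269 to 1377) and a background of 71.7 tags.

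Among the H2A genes H2AC12 was highest at 12.4 and H2AC16 lowest at 6.19, and among the H2B genes H2BC12 was highest at 12.4 and H2BC10 lowest at 6.06. H2BC12 and H2AC12 are neighbours and share their summit, whereas H2AC16 and H2BC10 have an interval each of their own. Class medians were 8.81 for H2A and 9.60 for H2B, with 1394 and 1298 tags, the highest of the 5 classes.

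The H3 genes had the lowest median fold enrichment, 6.85 over 12 genes, with 900 tags. In tags they were not lowest, as the medians were 754 for H4 and 630 for H1, whose median fold enrichment was 9.27. The highest H3 value, 11.3, was counted for H3C13. Its summit, however, lies 1232 bp from the start of H3C13 and 91 bp upstream of that of H2BC18. At its own start H3C13 had 5.21 from 565 tags. The highest H3 value at a listed start was 9.81, at H3C4, which shares that summit with H2AC7 and H2BC7. That start of H3C4, at 26199293, is also the start of H2AC7. Another listed start of H3C4 had its nearest summit 62 bp upstream, and the interval at H3C4 alone reached at most 3.57 and 385 tags. The lowest of the H3 values counted, 4.07, was found at both H3C14 and H3C15, from 946 and 968 tags over backgrounds of 232 and 237 tags. H3C7, listed at 6.82 through a summit at -941 bp from its start, had 3.84 within 200 bp of it. Of the H1 genes, which encode the linker histones, H1-3 was highest at 11.3 with only 393 tags (355 to 434) over 33.8 tags of background, H1-2 had 9.57, and H1-5 was lowest at 4.08. H1-4 was counted at 8.96 from 1432 tags, through a summit 1631 bp from its start and 161 bp upstream of that of H2BC5. At its own start it had 6.12 from 962 tags.

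Chromosome 1 carries near-identical copies. Promoters, taken from 250 bases before to 50 after the start, were 100% identical between H4C14 and H4C15, 99.3% between H2AC18 and H2AC19 and 97.4% between H3C14 and H3C15. On chromosome 6 only H4C11 and H4C12 reached 95%, at 98.3%. The copies had like values: a fold enrichment of 8.75 and 9.17 with 1329 and 1377 tags for H4C14 and H4C15, 7.41 and 7.48 with 1646 and 1706 tags for H2AC18 and H2AC19, and 4.07 in both with 946 and 968 tags for H3C14 and H3C15. H4C11 and H4C12 had 13.0 and 13.3 with 653 and 634 tags. In each pair the Poisson intervals of the tag counts overlapped. Reads from identical stretches cannot be told apart, and how the authors placed them is not given in the sources used here, so whether the copies are independent measurements was not tested.

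The remaining genes on chromosome 1 included the strongest sites in tags. H2AC25 and H2BC26 shared a summit of 1880 tags (1796 to 1967) with a fold enrichment of 10.9. H2BC21, H2AC20 and H2AC21 shared 1864 tags (1780 to 1951) at 7.52 over 247 tags, the highest background of any member, although at its own start H2AC21 had 5.88 from 1444 tags. The H2BC18 summit, which also counted for H3C13, had 1203 tags at 11.3.

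Promoters of the classes were then compared for short words that known regulators read, on both strands of the RefSeq promoters (GRCh38.p14), which were listed for 64 of the 70 members. Members without an entry were H4C1, H4C3, H2AC12, H3C11, H3C12 and H2BC12L. NF-Y reads the CCAAT box. The TATA box was searched as TATAAA. POU2F1 reads the octamer, ATTTGCAT. The H1 box was searched as AAACACA. HINFP reads an H4 site that includes GTCCG. An E2F-type site was searched as TTTCCCGC. No word contains another, but the windows of a divergent pair overlap, so that 1 word can count for both genes. A match is a description of these letters only.

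CCAAT was present in all 6 H1, 16 H2A, 18 H2B and 11 H3 promoters and in 3 of 13 H4 promoters, against 35.7% of the 27305 genes in the table. GTCCG showed the opposite division, with 12 of 13 H4 promoters and 5 of 51 in the other classes, against 28.7% of all genes. ATTTGCAT was found in 14 of 18 H2B and 11 of 16 H2A promoters and in none of the H1, H3 and H4 promoters, against 492 of all 27305 genes. AAACACA was found in all 6 H1 promoters, 1 of 16 H2A and 2 of 11 H3 promoters, against 5.76% of all genes. TATAAA was found in 43 of the 64, against 3264 of all genes. TTTCCCGC was found in 1 of the 64, that of H4C7, against 1.66% of all genes, a like share.

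Position set the class words apart further. On the coding strand, GTCCG began at -46 to -43, counted in bases from the start, in 12 of 13 H4 promoters, while 0.817% of all genes and none of the 51 other members held it at -50 to -40. AAACACA began at -119 to -105 in 5 of 6 H1 promoters, against 0.267% of all genes for -120 to -100. ATTTGCAT began at -49 to -45 in 8 of 18 H2B promoters, against 0.0916% of all genes for -50 to -40. All 8 had a summit, but so had 16 of the 18 H2B genes as a whole. These windows were set after the positions had been seen, so their shares are a description.

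The closed genes are shown beside an open gene of their class, because they show which of these words a gene without a summit carries. Sequences run from 190 bases before the start to 10 into the transcript, 5′ to 3′ on the coding strand, with the HINFP word, the TATA box, the CCAAT box and the E2F word in capitals on either strand. H4C12 (open, chr6:27831551-27831750, minus strand), H4C6 (closed, chr6:26240203-26240402, plus strand) and H4C7 (closed, chr6:26246987-26247186, minus strand) read:
H4C12: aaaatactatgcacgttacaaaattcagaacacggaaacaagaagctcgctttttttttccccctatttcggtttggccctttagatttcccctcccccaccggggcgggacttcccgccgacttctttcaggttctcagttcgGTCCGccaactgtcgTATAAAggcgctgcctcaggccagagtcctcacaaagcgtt
H4C6: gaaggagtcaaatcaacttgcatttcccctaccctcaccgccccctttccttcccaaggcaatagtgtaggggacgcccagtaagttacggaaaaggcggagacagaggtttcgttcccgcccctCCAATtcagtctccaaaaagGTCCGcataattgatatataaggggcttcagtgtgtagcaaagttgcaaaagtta
H4C7: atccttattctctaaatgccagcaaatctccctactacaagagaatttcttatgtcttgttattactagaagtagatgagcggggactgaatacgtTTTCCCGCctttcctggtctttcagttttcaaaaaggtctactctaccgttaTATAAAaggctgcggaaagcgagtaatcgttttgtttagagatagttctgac

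H4C6 held GTCCG at -45, as did closed H4C16 at -44, whereas H4C7 was the only H4 promoter without the word. For H1, the capitals mark the H1 box, the TATA box and the CCAAT box on either strand in H1-3 (open, chr6:26234978-26235177, minus strand), H1-1 (closed, chr6:26017778-26017977, minus strand) and H1-6 (closed, chr6:26108126-26108325, minus strand):
H1-3: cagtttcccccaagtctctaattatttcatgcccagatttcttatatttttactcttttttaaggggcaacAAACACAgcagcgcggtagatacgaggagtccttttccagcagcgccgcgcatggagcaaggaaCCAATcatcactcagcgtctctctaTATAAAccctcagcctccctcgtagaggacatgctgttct
H1-1: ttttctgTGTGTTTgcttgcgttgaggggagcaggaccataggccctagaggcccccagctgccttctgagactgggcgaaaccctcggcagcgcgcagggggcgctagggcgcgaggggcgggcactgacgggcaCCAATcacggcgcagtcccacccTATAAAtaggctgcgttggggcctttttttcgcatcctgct
H1-6: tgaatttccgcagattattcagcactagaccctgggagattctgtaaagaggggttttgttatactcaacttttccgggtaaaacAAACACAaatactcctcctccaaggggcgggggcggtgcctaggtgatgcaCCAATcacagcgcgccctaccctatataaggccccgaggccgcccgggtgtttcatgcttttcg

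H1-6 held the H1 box on the coding strand at -105, nearer to the start than the 4 open H1 genes, which held it at -119 or -117. In H1-1 the word lay on the other strand at -183. For the divergent pairs, the octamer, the TATA box and the CCAAT box are in capitals in H2BC11 (open, chr6:27132786-27132985, minus strand) and in the germ-line gene H2BC1 (closed, chr6:25726587-25726786, plus strand):
H2BC11: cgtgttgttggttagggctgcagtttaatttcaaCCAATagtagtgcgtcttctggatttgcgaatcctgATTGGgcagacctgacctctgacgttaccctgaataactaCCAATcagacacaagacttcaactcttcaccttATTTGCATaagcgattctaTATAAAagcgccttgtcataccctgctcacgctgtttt
H2BC1: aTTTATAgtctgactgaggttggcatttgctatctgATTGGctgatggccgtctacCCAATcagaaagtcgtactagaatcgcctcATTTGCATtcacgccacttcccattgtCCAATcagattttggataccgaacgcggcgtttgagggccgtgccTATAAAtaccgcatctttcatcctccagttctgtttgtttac

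Both promoters hold the octamer, the TATA box and CCAAT boxes, but the octamer lies at -47 in H2BC11 and at -104 in H2BC1. Open H2B genes also held it farther out, at -108 in H2BC6, -111 in H2BC7, -123 in H2BC4 and -149 in H2BC17. Closed H2BC3 held it at -120, so its position did not divide open from closed genes. Over all classes, CCAAT was present in 47 of 55 open and 7 of 9 closed promoters, TATAAA in 37 and 6, GTCCG in 15 and 2, and ATTTGCAT in 22 and 3. None of these words alone divided the open from the closed genes. Promoter GC content overlapped as well, with a median of 43.0% (36.3 to 56.0%) in open and 46.0% (38.7 to 58.0%) in closed members. Histone promoters as a group were poorer in GC than those of coding genes, with medians of 43.6% and 62.7%.

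Genes that work with the histone genes were examined from lists, again against the 68.8% of all coding genes. All 11 replication-independent histone variant genes had a summit, with a median fold enrichment of 10.2 and 1517 tags. They included H3-3A at 7.96 and H3-3B at 7.92, which encode the H3 that is deposited independently of replication. H2AZ1 had 6.39 with 1820 tags, and CENPA, the H3 of centromeres, had 15.3. Of 10 germ-line variant genes 3 had a summit, H2AB1 at 5.32, H2AB2 at 5.10 and H2AB3 at 5.23, with 238 to 258 tags. These 3 genes on the X chromosome are copies of each other, and their nearest summits lay 1383 to 1390 bp from their starts.

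The genes for making histone mRNA and placing histones were accessible throughout, in 10 of 10 genes for transcription of histone genes, 12 of 12 for 3′ end processing, 8 of 8 for replication-coupled assembly and 7 of 7 for replication-independent assembly. Median fold enrichments were 12.5, 13.3, 12.3 and 14.0, all above the 9.21 of the histone genes. NPAT, the coactivator that marks histone locus bodies, had 13.6 from 3188 tags, HINFP, which reads the H4 promoter, had 16.0, and SLBP, which binds the histone stem-loop, had 9.74, the lowest of its list.

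Markers gave the setting of these values. Of 11 neuronal marker genes 9 had a summit at an outer end, and ELAVL4 and RBFOX3, which lacked one there, had a summit at 1 and -35 bp from a listed inner start. The median fold enrichment of the 9 was 7.91, from 1.71 at TUBB3 to 10.8 at SYN1, below the 10.4 of all coding genes. The TUBB3 value came from 1 summit, 677 bp from an outer end, while 6 summits lay over the gene. The summit nearest to a listed TUBB3 start lay at -103 bp, so 1.71 need not describe that start. Pluripotency markers had 1 of 5, with LIN28A at 3.04. Glial markers had 5 of 9 with a median of 3.61, from 2.83 at AQP4 to 6.76 at OLIG2. Summits at inner starts were also found for DPPA4 of the former, at -15 bp, and SLC1A3 of the latter, at -37 bp. The glial genes ALDH1L1 and MBP were counted through summits 492 and 957 bp from an outer end. Their nearest summits to a listed start lay at -85 and 32 bp. Of 6 male germ-line markers 0 had a summit. All 7 markers of cycling cells had a summit, from 8.50 at MKI67 to 19.6 at CCNB1, with a median of 14.3, and PCNA stands in this list and among the assembly genes. Their part in the accessibility of the histone genes was not tested. The list holds no RNA, so whether any of these genes was transcribed was not measured.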

How the data were processed

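ATAC-seq of 3 replicates was analysed as 1 deposited list of peaks. Its name in the labels calls it the optimal set by irreproducible discovery rate, a method that keeps peaks ranked alike between samples. The genome build is hg38, per the submitters' processing notes, and the aligner, the peak caller and their filters are not given in the sources used here. The authors deposited for each summit a fold enrichment (a linear ratio, 1.29 to 31.9) and a −log10 p (5.92 to 2945). The q-value column was not used. The deposited score runs from 540 to 1000, and its scaling is not given in the sources used here. The depth of each replicate is unknown.

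Positions are counted from 1. Genes came from RefSeq (GRCh38.p14), with starts and strand from its promoter table. Tag counts and backgrounds were recovered from the ratio and the −log10 p by assuming Poisson tail probabilities, with 1 added to both terms of the ratio. The largest misfit over 145092 summits was 0.00079 units of −log10 p, against a median of 0.266 for the next whole number. Of 123892 backgrounds above the floor of 29.2 tags, 99.8% were within 0.0005 of a multiple of 0.015, which is what a tag extended to 150 bp adds to a mean across 10 kb. Poisson intervals are exact 95% intervals that cover counting error only, since PCR reads are not independent molecules. Promoters were aligned globally with biopython 1.88. Computations used Python 3.11.15, numpy 2.4.6, scipy 1.17.1 and pandas 2.3.3, and the code was tested on simulated data.

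Members and lists were chosen with earlier results of these data known. Named genes are the highest and lowest of each class, every member without a summit, those sharing an interval, those outside chromosome 6, the germ-line members, those nearest the limit of 1 kb, and examples from each list. Other genes are named for location, role, copies or words, after their values were seen. Alternatives were windows of 250 bp, 500 bp and 2 kb, a score of at least 830, the strongest summit of each interval, overlap with the gene body, the start only, members left out, tag counts and other sets of coding genes. The last sets, by crowding and by start, summits within 200 bp of a start and the word positions were chosen after the data had been seen. Protein sequences were not used here.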

Additional observations from a re-analysis of the deposited data

How the results depend on the processing

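Of 140 values recomputed for 14 results, 115 stayed within the interval of the reported value or within 1.5 times a count. The share of histone genes with a summit, 85.7%, became 70.0% when an interval had to cover at least 50% of the gene body, and 73.7% without genes that share every interval. The coverage setting also gave 57.9% for H2B, 61.5% for H3 and 61.5% for chromosome 1, 9 shared intervals with 18 genes, and a difference between chromosomes 6 and 1 of 13.0 percentage points in place of -14.5. That difference was 0.839 with the strongest summit of each interval. Leaving out genes that share every interval gave 66.7% for H2A, from 3 genes. That setting removes accessible genes only, so by construction it cannot raise a share. A window of 2 kb gave 36 shared intervals. The median became 1120 as tags, and the log2 ratio of chromosome 6 over chromosome 1 turned from 0.33 to -0.91 in tags and to -0.23 without near-identical promoters.

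The share of all coding genes, 68.8%, was 62.4% at 250 bp, 65.6% at 500 bp, 72.4% at 2 kb, 67.1% with a score of at least 830 and 66.7% with the strongest summit. It was 78.0% for any overlap with the gene body and 1.25% for coverage of at least 50%, a setting that long genes can hardly meet. It was 25.7% for short genes, 42.9% inside the spans, 83.7% for crowded genes and 72.4% at starts. Except where stated by construction, the cause was not tested. No paired analysis was possible because the list holds no value per sample, and no replicate could be left out for the same reason.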
